A study of Mus musculus with 16 samples.

Results

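A short hairpin RNA (shRNA) and a version of it carrying 5 point mutations (shRNA_5bp) were compared over the mature miRNAs of mouse primary forebrain neurons. The members are the 4 libraries labelled shRNA_5bp and the 4 labelled shRNA, 8 of the 16 libraries of the series, chosen by their labels alone. Of 1978 miRNA names in the deposited count table, 483 had enough counts to be tested. All groups shared a perinatal neuronal culture and transduction with a lentiviral vector. The other 8 libraries, 4 with an empty vector (Empty_Vector) and 4 with a hairpin carrying 2 point mutations (shRNA_2bp), entered the same fit and are given where they place a level. The hairpin's target, its sequence, the positions of the mutations, the promoter, and the strain and age of the mice are not given in the sources used here. Whether the 4 libraries of a group are separate cultures or animals is not stated in the labels, so p-values measure the spread between these libraries, which may be technical.

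MiRNAs are cut from hairpin precursors, first by the Microprocessor (Drosha with its partner Dgcr8) in the nucleus and then by Dicer in the cytoplasm, and a strand of the product is loaded into an Argonaute protein. A vector-borne shRNA is transcribed as a hairpin that is exported and cut by Dicer, so it passes through the same later machinery as the cell's own precursors. Either arm of a precursor, 5p or 3p, can become the guide, and bases 2 to 8 of the guide, the seed, do most of the pairing with target mRNAs.

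Library totals were 5304461 to 8061785 counts with shRNA and 831859 to 2496036 counts with shRNA_5bp. The totals did not overlap (two-sided exact permutation test, p = 0.0286, the smallest that 4 against 4 libraries allow), so depth differed along with the hairpin, and 3 counts corresponded to 0.372 to 0.566 CPM with shRNA and to 1.20 to 3.61 CPM with shRNA_5bp. Levels below are in CPM, counts relative to the scaled library total. Because RNA came from bulk cultures, fewer cells of a type and less RNA per cell cannot be told apart. On the first principal component of the 8 libraries, which held 75% of the variance, shRNA lay at -12.74 to -10.92 and shRNA_5bp at 8.16 to 14.3. Summed levels of the neuron-enriched list, which holds miR-128, miR-9 and miR-124, were 430400 to 449400 CPM of the unscaled total with shRNA and 371500 to 402900 CPM with shRNA_5bp. MiR-128-3p makes up most of that sum and was lower (scaled means of 331300 and 243600 CPM), while miR-9-5p was higher.

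The mature sequences of the miRNAs on which the comparison turns are given first, from RefSeq on GRCm38.p6, 5′ to 3′, with the seed in capitals. Sequences of 7 of the 10 names with the largest rises are printed to show that no seed recurs among them. MiR-696, miR-709 and miR-714 are the other names of that set.
miR-6481: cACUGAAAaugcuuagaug
miR-6238: uUAUUAGUcaguggaggaaaug
miR-6239: uAGCGUUGgaucacucggug
miR-1195: uGAGUUCGaggccagccugcuca
miR-690: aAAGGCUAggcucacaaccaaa
miR-6538: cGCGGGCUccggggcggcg
miR-5121: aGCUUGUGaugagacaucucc

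Among the largest falls, the abundant ones and the mirtron arms of miR-877 are shown, and here too each has its own seed.
miR-760-3p: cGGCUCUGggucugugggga
miR-433-3p: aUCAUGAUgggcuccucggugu
miR-770-5p: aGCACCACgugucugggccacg
miR-1983: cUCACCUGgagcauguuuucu
miR-92b-3p: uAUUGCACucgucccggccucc
miR-877-5p: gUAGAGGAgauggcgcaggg
miR-877-3p: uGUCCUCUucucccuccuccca

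The guides below are of the miR-7 and let-7 families, with the most abundant miRNA, miR-128-3p, for comparison. MiR-7a-5p and miR-7b-5p share GGAAGAC, let-7a-5p, let-7i-5p and miR-98-5p share GAGGUAG, and let-7j, which carries the let-7 name, has the seed GAGGUAU.
miR-7a-5p: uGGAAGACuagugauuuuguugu
miR-7b-5p: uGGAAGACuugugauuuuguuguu
let-7a-5p: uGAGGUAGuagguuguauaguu
let-7i-5p: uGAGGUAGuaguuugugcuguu
miR-98-5p: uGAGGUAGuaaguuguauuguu
let-7j: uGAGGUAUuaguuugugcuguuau
miR-128-3p: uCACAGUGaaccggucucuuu

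Of the 483 tested miRNAs, 256 (53%) changed between the hairpins at an adjusted p below 0.05 in edgeR's quasi-likelihood test, 137 (28.4%) higher with shRNA_5bp and 119 (24.6%) lower. The 4 libraries of each group did not overlap for 235 (48.7%) of the tested miRNAs, 222 of them among the 256. Most changes were small, and large ones were mainly rises of scarce names. More than 2-fold changes numbered 43 up and 28 down, and more than 4-fold changes 27 up and 4 down. Among the 67 miRNAs at 1000 CPM or more, 24 rose and 25 fell, with a median absolute log2 fold change of 0.291, and 4 moved more than 2-fold. The split between rises and falls depended on the scaling. Rises made up 53.5% of the calls, 61.5% with library size alone and 39.0% when the trimmed mean of M values took shRNA_2bp library 2 as its reference in place of shRNA library 2. The median log2 fold change of all tested miRNAs was -0.002, 0.10 and -0.13 under these scalings, so small changes are relative to that zero point. Under all 4 scalings tried, 194 miRNAs were called in 1 direction, 99 up and 95 down, and these counts are given beside the main ones below.

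**Figure D1:**
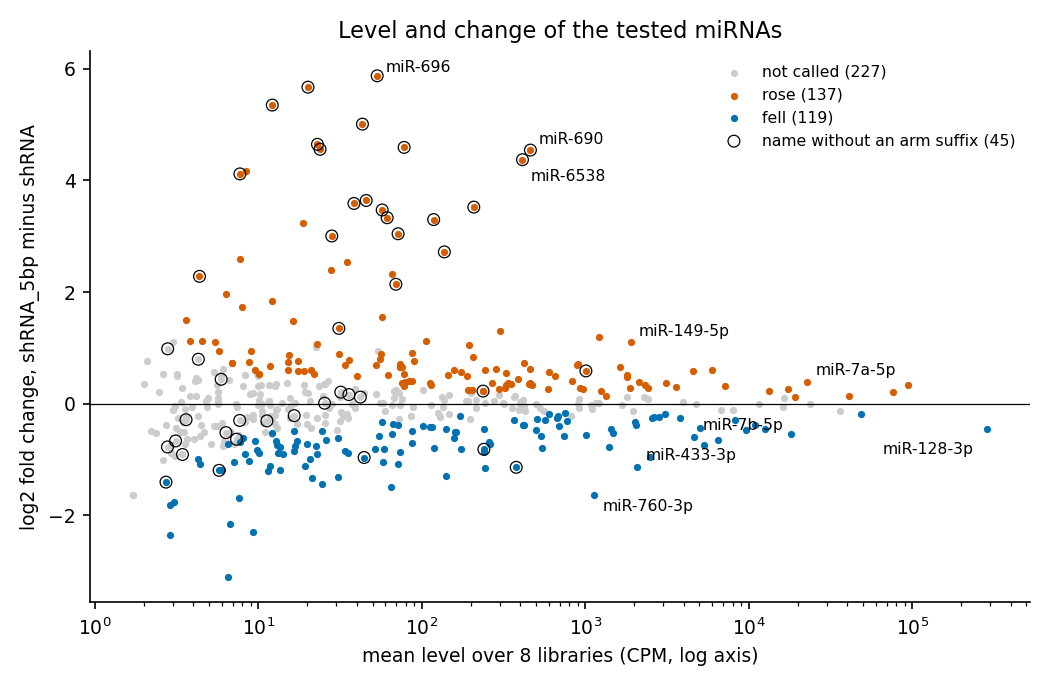
Each point is a tested miRNA, with its mean level over the 8 libraries in CPM on a log axis and its log2 fold change (shRNA_5bp minus shRNA) on the other, coloured by call, and circled where the name carries no arm suffix. Rises above 4-fold lie below 1000 CPM and are mostly circled names, while 4 of the 67 miRNAs at 1000 CPM or more moved over 2-fold.

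The largest rises were of names that were scarce in neurons with the unmutated hairpin. MiR-690 (chr16:28599940-28599961, minus strand, in an intron of Fgf12) had the highest level among them. Its level was 44.36, 40.02, 31.02 and 34.48 CPM in shRNA libraries 1 to 4 and 1128, 545.9, 1164 and 711.0 CPM in shRNA_5bp libraries 1 to 4. Every shRNA_5bp library lay far above every shRNA library, and libraries 1 and 3 of shRNA_5bp were the highest. The log2 fold change was 4.54 ± 0.263 (SE, adjusted p = 4.35e-09), against mean levels of 37.91 CPM with the empty vector and 131.7 CPM with shRNA_2bp. MiR-6538 (chr12:26414970-26414988, minus strand, in an intron of Rnf144a) was 26.68 to 48.08 CPM with shRNA and 994.7, 466.1, 1007 and 689.7 CPM with shRNA_5bp (4.37 ± 0.292, adjusted p = 2.15e-08). Library 2 of shRNA_5bp was again the lowest of its group.

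MiR-696 rose most, by 5.88 ± 0.362 (adjusted p = 5.98e-11), from 1.923, 2.478, 1.402 and 1.092 CPM to 137.2, 61.28, 132.4 and 89.41 CPM. In reads, these were 15, 13, 8 and 7 counts against 135, 165, 115 and 147. The smaller shRNA_5bp libraries thus held more miR-696 counts than the larger shRNA libraries. MiR-6481 (chr3:99199367-99199385, minus strand, in no annotated gene on that strand) went from 0.3846, 0.1906, 1.227 and 1.092 CPM to 66.04, 28.6, 36.83 and 26.76 CPM (5.67 ± 0.403). Its shRNA values rest on 3, 1, 7 and 7 counts. MiR-714 rested on 5, 6, 0 and 2 counts with shRNA and on 30, 37, 28 and 31 with shRNA_5bp (5.35 ± 0.492), and the sizes of both fold changes depend on these few counts. MiR-6481, miR-714, miR-6239 and miR-709 passed the filter on low counts only through the shRNA_5bp libraries. Such passing leans toward names that are higher there, so their values are a description. Of 24 tested names that passed this way, 10 rose. The filter asked for 3.8 CPM of the unscaled total in at least 4 of the 16 libraries. In all, 9 of the 27 miRNAs that rose more than 4-fold, these 4 among them, passed only through shRNA_5bp.

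Of the other large rises, miR-1195 (chr17:70860558-70860580, minus strand, in no annotated gene on that strand) went from 3.681 to 8.114 CPM with shRNA to 94.7 to 205.2 CPM with shRNA_5bp (4.59 ± 0.263). MiR-6238 rose by 5.01 ± 0.292, miR-6239 by 4.65 ± 0.415 and miR-709 by 4.56 ± 0.417, all from below 3 CPM in every shRNA library. MiR-5121 (chr7:45126925-45126945, minus strand), which lies within the small nucleolar RNA Snord33 and is annotated in an exon of Rpl13a and an intron of Gm45713, rose by 3.64 ± 0.228, from 5.258 to 8.195 CPM to 54.22 to 127.0 CPM. For each of these 5 names, library 2 of shRNA_5bp, the deepest of its group, was the lowest of the 4.

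Together the 27 miRNAs that rose more than 4-fold held 0.0272 to 0.0335% of the counts in shRNA libraries and 0.267 to 0.543% in shRNA_5bp libraries, against 0.0210 to 0.0338% with the empty vector and 0.0957 to 0.110% with shRNA_2bp. These shares describe miRNAs chosen for their rise, 9 of which passed the filter only through shRNA_5bp. Within shRNA_5bp the shares were higher in shallower libraries, though libraries 1 and 3 did not follow the order of depth. The shares were 0.543% and 0.499% in libraries 1 and 3, of 946285 and 831859 counts. Library 4, of 1462353 counts, held 0.386%, and library 2, of 2496036 counts, held 0.267%. Library 2 was the lowest of its group for 24 of the 27. The part of depth or RNA quality in these rises was not tested. The shRNA_2bp libraries had 1177068 to 2097782 counts. With every library thinned to 831859 counts, the log2 fold change was 4.59 for miR-690 and 6.61 for miR-696. Of the 27 names, 21 carry neither 5p nor 3p. All 45 tested names of that kind had a median log2 fold change of 0.99 against -0.002 for all 483. Of the 45, 24 rose and 5 fell (23 and 4 under all 4 scalings), against 28.4% and 24.6% of all tested miRNAs. Of these 24 rises, 6 passed the filter only through shRNA_5bp, and over the 36 names that did not depend on either group to pass, 18 rose and 5 fell, with a median of 0.51. The share of counts in the 45 tested names without an arm suffix was 0.232 to 0.255% with shRNA and 0.447 to 0.772% with shRNA_5bp. As 7 of the 45 passed the filter only through shRNA_5bp, this share is a description and no p-value is given. Over all 321 such names, tested or not, sums were 2339 to 2575 CPM of the unscaled total with shRNA. With shRNA_5bp they were 4498 to 7766 CPM. Among the 438 names with a suffix, 113 rose and 114 fell, and 6 rose more than 4-fold.

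Some of the large rises shared sequence with other classes of small RNA. Of the 21 large rises with a sequence, 9 (42.9%) shared a stretch of 16 bases with a GENCODE M21 small RNA not classed as a miRNA. So did 13 of the 406 others (3.2%), a description without a test. Both counts include matches to an RNA that bears the miRNA's own name, Mir3068 for the arms of miR-3068 and Mir1839 for miR-1839-5p. Among the 9, miR-6481 and miR-7033-5p passed the filter only through shRNA_5bp. The classes searched included mitochondrial tRNA but no nuclear tRNA. MiR-6481 shared such a stretch with mt-Tf, the mitochondrial phenylalanine tRNA, and miR-5121 with Snord33. MiR-1195, miR-3470b and miR-3473e shared it with RNAs annotated as misc_RNA, and miR-7033-5p with a small nucleolar RNA gene. Shared letters do not say which RNA gave the reads. Over all rises the share was 8.5% and over all falls 9.3%, among the latter miR-770-5p with Snord66.

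**Figure D2:**
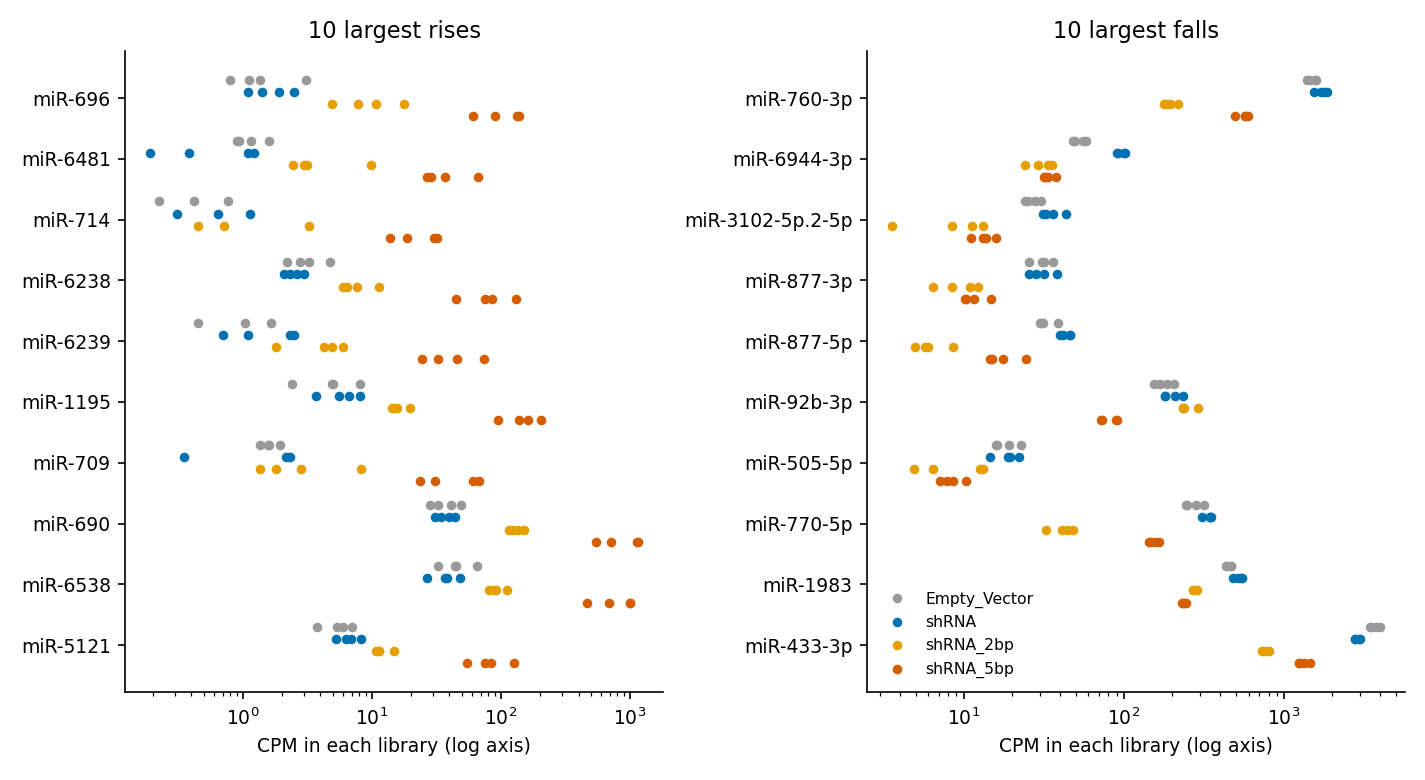
CPM in each of the 4 libraries per group, on a log axis, for the 10 largest rises and the 10 largest falls among called miRNAs of at least 10 CPM whose groups do not overlap; libraries at 0 are not drawn. For every name shown the shRNA_5bp points lie apart from the shRNA points, and among the rises miR-690 reaches 545.9 to 1164 CPM.

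The largest falls were smaller than the largest rises, and several were of well-counted miRNAs. MiR-760-3p (chr3:122293615-122293634, minus strand, in an exon of the transcript Gm17494) fell most in this set. Its level was 1775, 1849, 1696 and 1535 CPM with shRNA and 594.4, 566.4, 567.5 and 493.3 CPM with shRNA_5bp. The groups stood far apart, and the log2 fold change was -1.63 ± 0.0728 (adjusted p = 1.23e-16). Its mean was 1497 CPM with the empty vector and 193.3 CPM with shRNA_2bp, so shRNA_5bp lay between shRNA and shRNA_2bp.

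MiR-433-3p (chr12:109591781-109591802, plus strand, within the imprinted Dlk1-Dio3 region) was 2756, 2918, 2976 and 2790 CPM with shRNA and 1231, 1443, 1329 and 1233 CPM with shRNA_5bp (-1.12 ± 0.0618, adjusted p = 8.53e-15). MiR-770-5p (chr12:109563710-109563731, plus strand, in an exon of the maternally expressed noncoding RNA Meg3) went from 342.8, 348.0, 345.5 and 305.8 CPM to 164.6, 142.6, 156.5 and 145.4 CPM (-1.15 ± 0.0966, adjusted p = 5.28e-11). MiR-1983 (chr13:21896930-21896950, minus strand, in no gene that GENCODE M21 holds on that strand) went from 480.7 to 546.7 CPM to 229.6 to 243.9 CPM (-1.14 ± 0.0673). In none of these did a library of either group reach the other group's range. MiR-92b-3p, which shares its seed AUUGCAC with miR-25-3p and miR-92a-3p, went from 179.9, 207.6, 181.6 and 235.0 CPM to 72.14, 89.88, 72.52 and 88.8 CPM (-1.29 ± 0.118, adjusted p = 2.47e-10). Its mean with shRNA_2bp, 248.6 CPM, lay above that of shRNA, unlike the other large falls with over 100 CPM. MiR-6944-3p (-1.48 ± 0.129, in an intron of Dbn1, which encodes the actin-binding protein drebrin) and miR-3102-5p.2-5p (-1.44 ± 0.213) fell from means of 96.06 and 35.84 CPM with shRNA.

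Several of the most abundant miRNAs moved by less than 2-fold without overlap of the groups. MiR-128-3p, a neuronal miRNA made from introns of R3hdm1 (chr1:128202404-128202424) and Arpp21 (chr9:112118644-112118664), was 352700, 330300, 342000 and 300100 CPM with shRNA and 262500, 229500, 269100 and 213100 CPM with shRNA_5bp. Even the highest shRNA_5bp library lay below the lowest shRNA library, and the log2 fold change was -0.44 ± 0.0649 (adjusted p = 1.36e-06). Its share of all counts was 31.6 to 34.1% with shRNA and 23.96 to 28.1% with shRNA_5bp (two-sided exact permutation test, p = 0.0286, adjusted p = 0.0286 over 3 library measures). MiR-99a-5p, processed from Mir99ahg on chromosome 16 together with let-7c, rose from 83340, 84830, 80450 and 84020 CPM to 105500, 102900, 104700 and 105800 CPM (0.33 ± 0.0483, adjusted p = 1.20e-06). The neurogenic miR-9-5p rose from 67450 to 73200 CPM to 79880 to 83320 CPM (0.21 ± 0.0467, adjusted p = 0.000327), but the call was lost with the shRNA_2bp reference (0.08, adjusted p = 0.145). MiR-26a-5p was 22640 to 25030 CPM and 23330 to 24090 CPM (-0.004 ± 0.0502, adjusted p = 0.957), with overlapping groups.

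**Figure D3:**
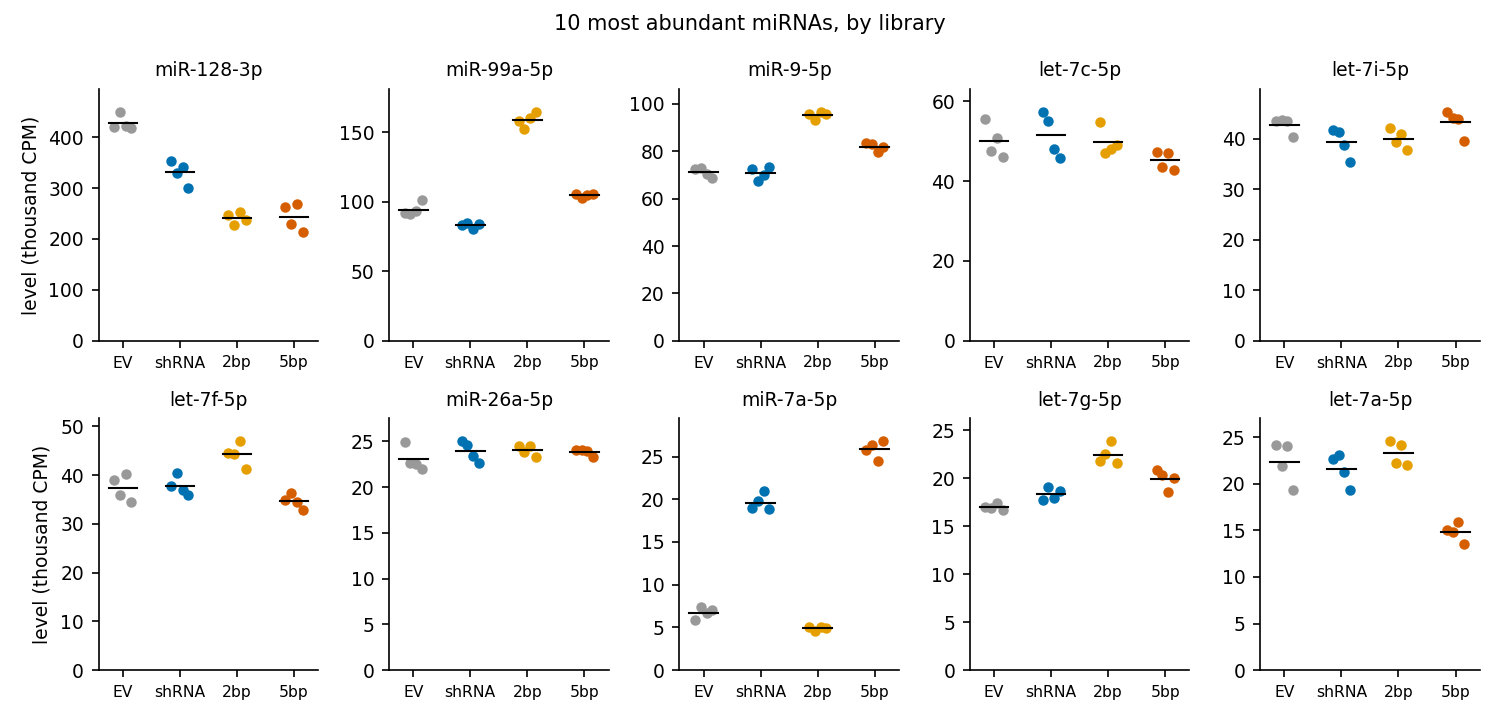
Level in CPM, divided by 1000, of the 10 most abundant miRNAs in each library, with a bar at the group mean (EV, Empty_Vector; 2bp, shRNA_2bp; 5bp, shRNA_5bp). Between shRNA and shRNA_5bp, miR-128-3p and let-7a-5p are lower and miR-99a-5p and miR-7a-5p higher without overlap, while miR-26a-5p overlaps.

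Both guides of the miR-7 family, neuronal and endocrine miRNAs of the same seed, moved in opposite directions. MiR-7a-5p, encoded in an intron of Hnrnpk (chr13:58392841-58392863) and on chromosome 7 (chr7:78888295-78888317), was 18980, 19750, 20920 and 18820 CPM with shRNA and 25710, 26320, 24530 and 26800 CPM with shRNA_5bp. MiR-7b-5p (chr17:56243017-56243040) was 5502, 5599, 5865 and 5440 CPM with shRNA and 3736, 3906, 3481 and 3753 CPM with shRNA_5bp. Neither overlapped, and miR-7a-5p rose by 0.40 ± 0.0603 (adjusted p = 2.24e-06) while miR-7b-5p fell by 0.59 (SE 0.0607, adjusted p = 2.60e-09), both under all 4 scalings. For reference, miR-7a-5p stood at 6738 ± 658.1 CPM with the empty vector and 4917 ± 227.1 CPM with shRNA_2bp, and miR-7b-5p at 1378 ± 89.2 and 715.9 ± 63.07 CPM (SD, n = 4). Both guides were thus far higher with shRNA and shRNA_5bp than with the other vectors, while they ranked differently between these hairpins. Of the opposite arms, miR-7a-1-3p was 15.51 to 20.58 CPM with shRNA and rose to 21.87 to 32.68 CPM (0.53 ± 0.193, adjusted p = 0.0221; adjusted p = 0.0751 with the shRNA_2bp reference) and miR-7a-2-3p fell by 0.33 (SE 0.133, adjusted p = 0.0416).

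Of the 4 tested arms of the activity-regulated miR-132 and miR-212, which are cut from 1 primary transcript on chromosome 11, 1 rose and 1 fell. These shares are near the 28.4% and 24.6% of all tested miRNAs. MiR-212-5p (chr11:75173403-75173425) went from 802.5, 842.2, 809.3 and 716.0 CPM to 562.9, 675.2, 594.0 and 562.0 CPM (-0.40 ± 0.0759, adjusted p = 5.47e-05). MiR-212-3p (chr11:75173443-75173464) went from 73.08, 79.48, 71.34 and 75.52 CPM to 105.7, 103.6, 89.78 and 94.88 CPM (0.40 ± 0.126, adjusted p = 0.0083; adjusted p = 0.0745 with the shRNA_2bp reference). The 2 arms of the same hairpin therefore moved apart without overlap of the groups. MiR-132-3p, the main product of the transcript, was 1621 to 1794 CPM and 1678 to 2020 CPM and was not called (0.12 ± 0.0672, adjusted p = 0.134).

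Among 27 tested miRNAs of the other neuron-enriched list, 10 rose and 5 fell (5 and 4 under all 4 scalings), against 28.4% and 24.6% of all tested miRNAs, with a median of 0.05 that was -0.09 with the shRNA_2bp reference. MiR-149-5p, in an intron of the heparan sulfate proteoglycan gene Gpc1 (chr1:92850381-92850403), was 1191, 1315, 1171 and 1140 CPM with shRNA and 2645, 2678, 2523 and 2529 CPM with shRNA_5bp. It more than doubled with no overlap (1.11 ± 0.0595, adjusted p = 7.37e-15) and stood at 880.8 ± 43.66 CPM with shRNA_2bp (SD, n = 4). MiR-135b-5p went from 180.4, 154.4, 174.8 and 183.5 CPM to 414.5, 460.9, 406.3 and 428.2 CPM (1.31 ± 0.0752, adjusted p = 2.19e-14). MiR-139-3p, in an intron of the phosphodiesterase gene Pde2a, fell from 134.2 to 161.8 CPM to 75.42 to 103.6 CPM (-0.78 ± 0.117, adjusted p = 1.73e-06). The neuronal differentiation miRNA miR-124-3p, named here after its values were seen, was 2062 to 2319 CPM and 1682 to 1919 CPM (-0.32 ± 0.0706, adjusted p = 0.000346).

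The let-7 family restrains growth and accumulates as neurons mature. Of its 19 tested names with miR-98, 9 fell and 3 rose (7 and 1 under all 4 scalings), against 24.6% and 28.4% of all tested miRNAs. The median of these names was -0.22. Let-7a-5p (chr13:48538239-48538260) went from 22680, 23120, 21310 and 19310 CPM to 14990, 14800, 15920 and 13540 CPM (-0.55 ± 0.0685, adjusted p = 1.36e-07). MiR-98-5p, in an intron of Huwe1 on the X chromosome, went from 1645 to 1843 CPM to 976.8 to 1092 CPM (-0.77 ± 0.0638, adjusted p = 3.73e-11). Let-7j, which lies alone on chromosome 3 (chr3:140028281-140028304), went the other way, from 701.2, 672.2, 702.4 and 670.6 CPM to 1098, 1215, 1068 and 1108 CPM (0.71 ± 0.0612, adjusted p = 8.45e-11). The groups were apart for each of these 3 names. Let-7c-5p was 45860 to 57290 CPM and 42660 to 47270 CPM, overlapping, at -0.19 ± 0.0695 (adjusted p = 0.0229; adjusted p = 0.205 with library size alone). Let-7i-5p (0.14 ± 0.0577, adjusted p = 0.0493) and let-7g-5p (0.12 ± 0.0503, adjusted p = 0.0467) overlapped too, and their calls did not hold under other settings. Let-7f-5p was not called (-0.12 ± 0.0568, adjusted p = 0.066). When counts were summed over the 11 names with the seed GAGGUAG, the family total was not called (-0.14 ± 0.0627, adjusted p = 0.0555), at means of 194900 CPM with shRNA and 176600 CPM with shRNA_5bp.

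MiRNAs co-transcribed with let-7 copies moved by member. Of 9 in the miR-99/100 and miR-125 list, 3 rose and 2 fell, also under all 4 scalings. These shares are near those of all tested miRNAs (28.4% and 24.6%). MiR-100-5p went from 3671, 3640, 3390 and 3976 CPM to 5611, 5661, 5375 and 5368 CPM (0.59 ± 0.0554, adjusted p = 4.66e-10), beside the rise of miR-99a-5p, which has the same seed ACCCGUA. MiR-99b-5p of the same family, named after its values were seen, fell (-0.26, adjusted p = 0.000215, 3790 CPM over the 8 libraries). MiR-125a-5p, in an exon of Spaca6 on chromosome 17, fell from 5443 to 6043 CPM to 4067 to 4713 CPM (-0.43 ± 0.0632, adjusted p = 1.57e-06). MiR-125b-2-3p, the opposite arm of an abundant guide, rose from 119.0 to 136.4 CPM to 169.2 to 214.7 CPM (0.60 ± 0.0944).

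The miR-23/27/24 clusters, of broad expression, rose in part. Of 9 tested names 5 rose, also under all 4 scalings, against 28.4% of all tested miRNAs. The other 4 were not called, and the median was 0.52 against -0.002 for all tested. MiR-23a-3p went from 58.21, 53.75, 56.79 and 73.33 CPM to 113.8, 115.9, 118.6 and 109.5 CPM (0.91 ± 0.137, adjusted p = 1.90e-06). MiR-27a-3p went from 324.8, 297.9, 327.4 and 323.9 CPM to 579.1, 524.4, 495.0 and 510.3 CPM (0.73 ± 0.158, adjusted p = 0.0012), and miR-24-2-5p rose by 0.69 ± 0.144. These 3 come from neighbouring hairpins on chromosome 8 (miR-23a-3p at chr8:84208563-84208583, plus strand), and for all 3 the groups stayed apart.

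In the growth-linked miR-17-92 cluster and its paralogs, 3 of 11 rose and 1 fell (the 3 rises, but not the fall, under all 4 scalings). Of all tested miRNAs 28.4% rose and 24.6% fell. The list median was 0.10, and -0.03 with the shRNA_2bp reference. MiR-17-5p (24.59 to 29.1 CPM against 39.14 to 51.25 CPM, 0.79 ± 0.165) and miR-20a-5p (17.53 to 24.89 CPM against 36.49 to 47.91 CPM, 0.90 ± 0.168), from the Mir17hg transcript, rose without overlap. MiR-25-3p, from an exon of Mcm7, went from 356.3 to 444.6 CPM to 485.0 to 547.6 CPM (0.38 ± 0.08, adjusted p = 0.000205). In the miR-181 family, 5 of 8 rose (3 under all 4 scalings), against 28.4% of all tested miRNAs. The other 3 were not called, and the median was 0.33. MiR-181d-5p went from 1941 to 2123 CPM to 2477 to 2753 CPM (0.33 ± 0.0556, adjusted p = 1.00e-05) and miR-181c-3p, from the same precursor cluster within Nanos3, from 44.41 to 62.41 CPM to 69.06 to 76.63 CPM (0.51 ± 0.131). MiR-181a-1-3p overlapped between groups (0.40 ± 0.118, adjusted p = 0.00568; adjusted p = 0.0653 with the shRNA_2bp reference).

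Among 11 miR-30 names tested, 4 were higher and 1 lower (3 and 1 under all 4 scalings), against 28.4% and 24.6% of all tested miRNAs, with a median of 0.12 that was -0.01 with the shRNA_2bp reference. The fall was of the most abundant member, miR-30d-5p, from 12520, 11980, 12960 and 12140 CPM to 9205, 10120, 9331 and 9339 CPM (-0.38 ± 0.0507, adjusted p = 2.48e-07). MiR-30e-3p rose from 685.5 to 749.6 CPM to 885.0 to 1018 CPM (0.41 ± 0.0584) and miR-30a-3p from 747.2 to 912.7 CPM to 942.7 to 1064 CPM (0.29 ± 0.0661). Both are opposite arms, with the seed UUUCAGU, and neither overlapped.

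The p53-linked miR-34 and miR-449 family was low throughout. Of 5 tested arms 2 fell, also under all 4 scalings, against 24.6% of all tested miRNAs. The other 3 were not called, and the median was -0.72. MiR-34b-3p went from 22.56, 27.45, 19.46 and 28.71 CPM to 14.22, 15.23, 18.42 and 12.77 CPM (-0.72 ± 0.188, adjusted p = 0.00197), and miR-34a-5p, at 4.604 to 7.428 CPM with shRNA_5bp, fell by 1.02 (SE 0.252). With shRNA_5bp miR-34b-3p was close to its mean of 13.7 CPM with the empty vector, while shRNA_2bp held 45.93 CPM. In the miR-29 family, which rises with neuronal maturation, miR-29a-3p (chr6:31062673-31062694) fell from 556.2, 721.6, 635.9 and 662.3 CPM to 417.6, 472.4, 379.9 and 451.9 CPM (-0.57 ± 0.0896, adjusted p = 3.94e-06). MiR-29b-3p was called lower (-1.20 ± 0.488, adjusted p = 0.0498) on the strength of 30.27 CPM in shRNA library 4, and without that library the difference was -0.69 with an adjusted p of 0.107. MiR-29c-5p rose by 0.61 ± 0.199, so of 4 tested names 2 fell and 1 rose (1 and 1 under all 4 scalings). Of all tested miRNAs 24.6% fell and 28.4% rose.

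**Figure D4:**
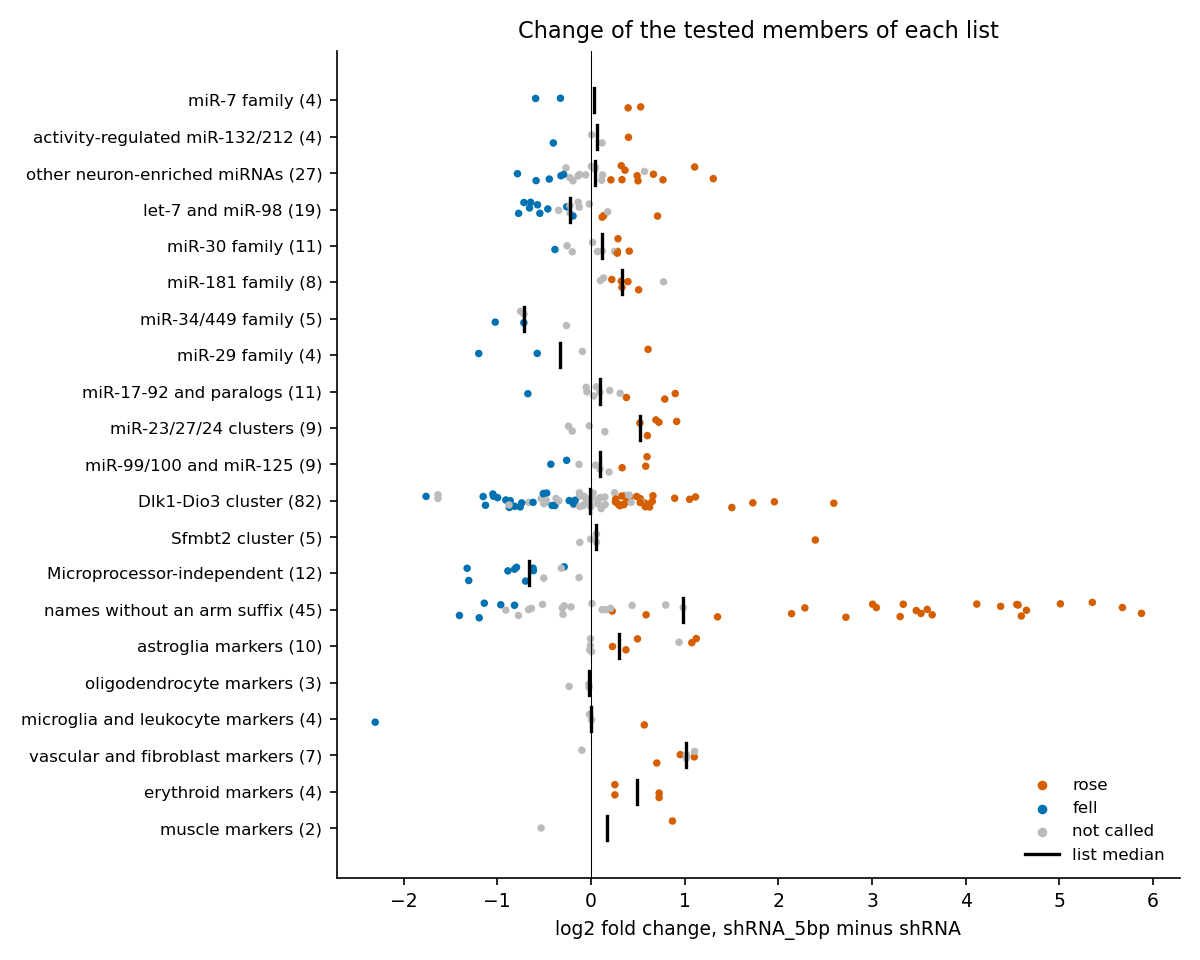
Log2 fold changes (shRNA_5bp minus shRNA) of the tested members of each list, with the number tested in brackets, coloured by call, and a black bar at the list median; vertical scatter has no meaning. Names without an arm suffix reach 5.88, Microprocessor-independent miRNAs all lie below 0 with a median of -0.66, and the Dlk1-Dio3 members spread to both sides.

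MiRNAs made without the Microprocessor, among them mirtrons whose precursors are spliced introns, fell or were not called. Of 12 tested names 9 fell, also under all 4 scalings, against 24.6% of all tested miRNAs. The other 3 were not called, and the median was -0.66 against -0.002 for all tested. The arms of miR-877, a mirtron in Abcf1 (5p arm at chr17:35960795-35960814, minus strand), fell together. MiR-877-5p went from 46.28, 41.74, 45.75 and 39.79 CPM to 24.38, 17.46, 14.96 and 14.6 CPM (-1.30 ± 0.172, adjusted p = 2.44e-07), and miR-877-3p from 25.51, 28.4, 38.04 and 31.67 CPM to 10.16, 14.86, 10.36 and 11.56 CPM (-1.32 ± 0.203, adjusted p = 2.60e-06). With shRNA_2bp miR-877-5p was lower still, at 6.304 CPM. MiR-1981-3p, in an intron of Marc2, fell from 13.85 to 20.86 CPM to 6.69 to 12.26 CPM (-0.89 ± 0.257). MiR-320-3p, chosen after its values were seen because its hairpin is a standard example of a precursor cut by Dicer alone, was among the 3 not called (-0.13). The list shares miR-668 with the Dlk1-Dio3 list and miR-484 with the names without an arm suffix.

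The imprinted Dlk1-Dio3 region on chromosome 12 holds a large miRNA cluster expressed from the maternal chromosome in mouse brain. Of its 82 tested names 25 rose and 21 fell (18 and 17 under all 4 scalings), shares near those of all tested miRNAs (28.4% and 24.6%), with a median of -0.01 that was 0.09 with library size alone and -0.14 with the shRNA_2bp reference, where 18 rose and 31 fell. Summed levels were 85950 to 91870 CPM of the unscaled total with shRNA and 93530 to 101900 CPM with shRNA_5bp. In the 31.7 kb from miR-770 to miR-136, which includes the miRNAs antisense to Rtl1, 5 of 20 rose and 8 fell. In the 34.7 kb from miR-379 to miR-410, 18 of 52 rose and 12 fell, with medians of -0.18 and 0.07. In the Rian intron 1 of 5 rose.

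MiR-540-3p (chr12:109586122-109586141) went from 73.08, 68.61, 61.7 and 62.72 CPM to 151.4, 132.6, 137.0 and 157.5 CPM (1.12 ± 0.102, adjusted p = 2.46e-10), in the same segment as miR-433-3p, which fell. MiR-431-5p, between them, fell from 282.1 to 337.7 CPM to 156.5 to 177.2 CPM (-0.86 ± 0.0973, adjusted p = 1.45e-08), and its means were 120.4 CPM with the empty vector and 129.4 CPM with shRNA_2bp. In the distal segment miR-376b-3p rose from 115.5 to 145.1 CPM to 247.9 to 269.6 CPM (1.05 ± 0.085, adjusted p = 2.61e-11), against 487.2 CPM with shRNA_2bp. For each of the 3, shRNA and shRNA_5bp libraries lay apart. MiR-431-5p and miR-376b-3p were named after their values were seen. The rodent Sfmbt2 cluster, repeat-derived, had 5 of 80 names tested, of which miR-466i-5p rose from 6.485 to 11.08 CPM to 24.51 to 59.94 CPM (2.40 ± 0.274, adjusted p = 1.67e-07). It stood at 46.2 CPM with shRNA_2bp.

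**Figure D5:**
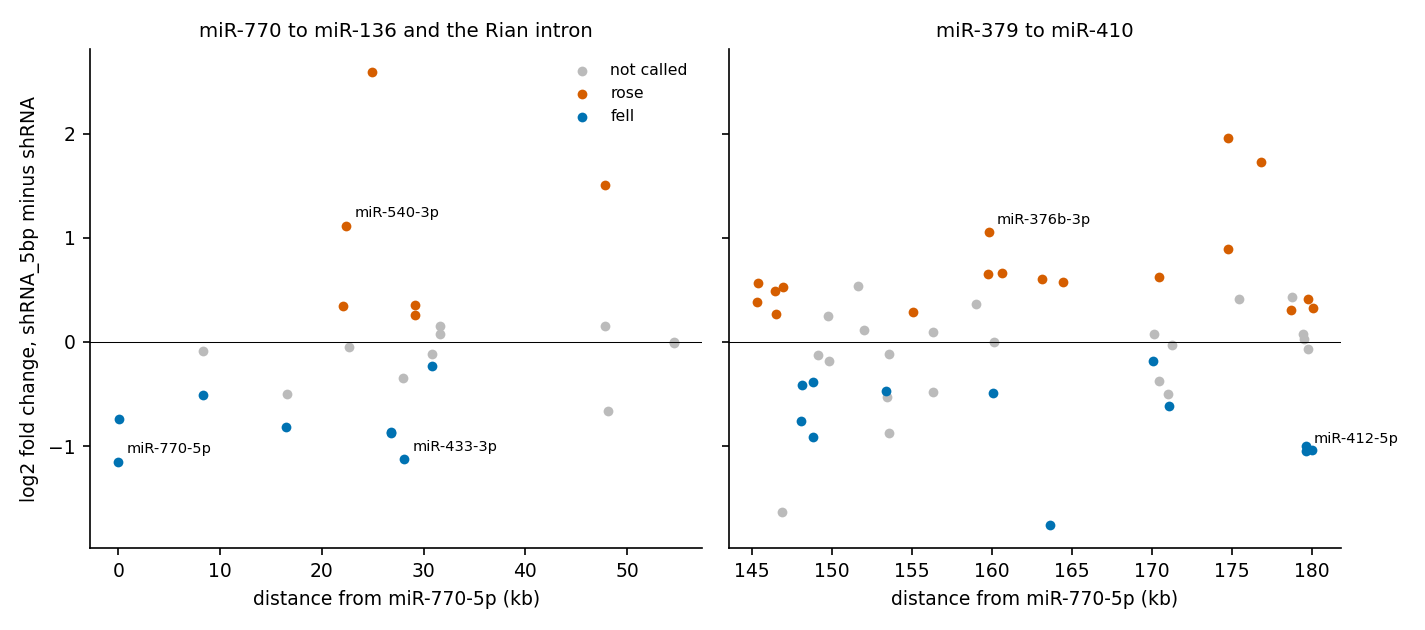
Log2 fold change (shRNA_5bp minus shRNA) of Dlk1-Dio3 miRNAs against distance from miR-770-5p in kb, in 2 panels for the proximal and distal segments, coloured by call. Rises and falls occur within both segments, such as miR-540-3p at 1.12 and miR-433-3p at -1.12 in the proximal one.

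The balance of the arms of a precursor was compared as the log2 ratio of 5p to 3p counts, a measure that no scaling of the library changes. Of 119 precursors with both arms tested, 30 (25.2%) changed in limma's moderated test, 12 toward 5p and 18 toward 3p. Both arms were called in the miRNA test for 39 precursors, in the same direction for 36 and in opposite directions for 3. The ratio of miR-212 fell from 3.46, 3.4, 3.5 and 3.24 to 2.41, 2.7, 2.72 and 2.56 (-0.80 ± 0.162, adjusted p = 0.00538), as its arms moved apart. For miR-139, whose 5p arm is the guide, the ratio rose from 3.67, 3.94, 3.62 and 3.82 to 4.59, 4.32, 4.18 and 4.6 (0.66 ± 0.139, adjusted p = 0.00538). MiR-221 shifted further toward its abundant 3p arm, from -5.54, -5.35, -5.34 and -5.31 to -6.21, -6.09, -6.43 and -5.9 (-0.77 ± 0.16, adjusted p = 0.00538). None of these 3 had overlapping groups.

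MiR-676 (0.73 ± 0.154), miR-345 (0.86 ± 0.24), miR-433 (0.91 ± 0.222) and miR-1843b (0.46 ± 0.123) also shifted toward 5p, and miR-140 (-0.70 ± 0.159), miR-664 (-0.78 ± 0.269) and miR-125a (-0.57 ± 0.149) toward 3p. The groups overlapped for miR-664, whose call was lost from the 8 libraries alone. For miR-125a, shRNA library 2 and shRNA_5bp library 1 both stood at 6.34. Of the 10 ratios named so far, 4 kept their direction and call under every alternative run for them. The largest shift was of miR-3068, named after its values were seen because its arms lie on either side of 10 CPM. Its 3p arm rose from 17.82, 23.25, 19.46 and 25.28 CPM to 142.2, 71.31, 119.7 and 105.2 CPM, while its 5p arm went from 9.872, 12.2, 10.69 and 12.64 CPM to 5.08, 8.171, 0 and 7.298 CPM (ratio -3.91 ± 0.686, adjusted p = 0.00332). The 5p values with shRNA_5bp rest on 5, 22, 0 and 12 counts. Both arms share a 16-base stretch only with Mir3068, an RNA of the same name that GENCODE classes as a small nucleolar RNA. The number of ratios called fell to 14 when the 8 libraries were fitted alone and to 7 of 81 after thinning. It was 14 without shRNA library 3 and 19 without shRNA library 1.

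Summed over names with the same seed, 185 of 358 seeds (51.7%) changed, 95 up and 90 down. Only names with a sequence entered these sums, 427 of the 483 tested names among them. Of the 74 seeds shared by 2 or more names, 24 rose and 17 fell. The seed AUAUAAC, carried by miR-344d-3p, miR-410-3p and miR-344e-3p, went from 958.9 to 1173 CPM to 1782 to 2327 CPM (1.02 ± 0.0781, adjusted p = 3.96e-13), of which miR-344d-3p gave 73.2%. MiR-344d-3p itself, named after its values were seen, went from 860.0, 758.2, 661.2 and 676.1 CPM to 1865, 1925, 1656 and 1359 CPM. The opposite arms of the miR-344 group, with the seed GUCAGGC, went from 10.39 to 12.97 CPM to 52.08 to 68.8 CPM (2.38 ± 0.164, adjusted p = 5.61e-15). Of the other 3p arms with the miR-344 name, miR-344c-3p fell (-0.49, adjusted p = 0.0301) and miR-344-3p, at 397.1 CPM over the 8 libraries, was not called (0.03, adjusted p = 0.895), so the 3p arms did not move together. The seed GGCUGGA of miR-3473b and miR-3473e rose by 3.19 ± 0.234, GGUCAGA of miR-540-3p and miR-6915-5p by 1.12 ± 0.109, and CAAAGCA of miR-330-3p and miR-6240 by 0.92 ± 0.0925. Within the last of these miR-330-3p itself fell, so its sum rose through miR-6240.

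Among the shared seeds that fell, GGCAGUG was summed over miR-34a-5p, miR-34b-5p, miR-449a-5p and miR-449c-5p. This sum went from 16.73 to 23.96 CPM to 9.191 to 16.61 CPM (-0.76 ± 0.207, adjusted p = 0.00208). MiR-34c-5p, the most abundant tested arm of that family at 35.25 CPM, was not in the sum. On its own miR-34c-5p was not called (-0.26, adjusted p = 0.266). AUCACUA of miR-34b-3p and miR-34c-3p went from 24.91 to 39.46 CPM to 16.34 to 22.54 CPM (-0.74 ± 0.18). The seed UCACCUG of miR-1983 and miR-412-3p fell by 1.13 (SE 0.0743), AUGCACC of miR-501-3p and miR-500-3p by 0.62 (SE 0.0953) and CUGGCUG of miR-3085-3p and miR-3064-5p by 0.67 (SE 0.209). Where members of a seed moved apart, the sum could stay level: AUUGCAC, of miR-25-3p, miR-92a-3p, miR-92b-3p, miR-32-5p and miR-363-3p, was 877.8 CPM with shRNA and 890.7 CPM with shRNA_5bp on average (0.02 ± 0.0651, adjusted p = 0.834).

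Markers of other cells that such cultures can hold were mostly low, and some rose. Of 10 tested astroglia-leaning miRNAs 5 rose (3 under all 4 scalings), against 28.4% of all tested miRNAs. The other 5 were not called, and the median was 0.30. Summed levels were 27220 to 28160 CPM of the unscaled total against 29500 to 31100 CPM. MiR-26a-5p made up most of both sums (23200 to 24300 and 25000 to 26200 CPM, unscaled). With scaling miR-26a-5p was not called (-0.004, adjusted p = 0.957). MiR-204-3p, from an intron of Trpm3, went from 12.27 to 16.23 CPM to 16.71 to 50.65 CPM (1.08 ± 0.223) and miR-22-5p from 94.36 to 99.03 CPM to 119.7 to 139.2 CPM (0.37 ± 0.0877). MiR-204-5p was at the threshold (0.50 ± 0.197, adjusted p = 0.0488; adjusted p = 0.146 with the shRNA_2bp reference). The endothelial miR-126a-3p, in Egfl7 (chr2:26591402-26591423), went from 621.6, 682.1, 701.1 and 695.4 CPM to 1150, 1113, 1102 and 1033 CPM (0.70 ± 0.0632, adjusted p = 1.80e-10). In its list 3 of 7 vascular and fibroblast names rose (2 under all 4 scalings), against 28.4% of all tested miRNAs. Summed levels of that list were 646.9 to 789.5 against 1245 to 1355 CPM of the unscaled total. MiR-126a-3p made up most of both sums (601 to 732 and 1150 to 1200 CPM, unscaled). Of the fibroblast and mural markers in that list, miR-199a-3p, whose counts equal those of miR-199b-3p, was 11.03, 11.24, 18.58 and 14.98 CPM with shRNA and 10.16, 16.71, 72.52 and 24.33 CPM with shRNA_5bp, overlapping and not called (1.02, adjusted p = 0.0636), with library 3 of shRNA_5bp the highest. MiR-145a-5p and miR-214-3p had 2 and 9 counts in all shRNA libraries together and 2 and 2 counts in all shRNA_5bp libraries.

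Of 4 tested microglia and leukocyte names, 1 rose and 1 fell, near the 28.4% and 24.6% of all tested miRNAs. Their summed levels were 748.0 to 863.8 against 1042 to 1172 CPM. MiR-342-3p, also made in neurons from the Evl gene, rose from 422.4 to 537.7 CPM to 629.6 to 805.5 CPM (0.57 ± 0.133, adjusted p = 0.00173). The myeloid miR-223-3p and the leukocyte miR-142a-3p had 0 counts in all 8 libraries. MiR-155-5p, an inflammation-linked miRNA named after its values were seen, fell from 15.64, 13.34, 18.4 and 12.48 CPM to 6.096, 1.486, 4.604 and 2.433 CPM (-2.30 ± 0.361, adjusted p = 3.58e-06). Its shRNA_5bp values rest on 4 to 6 counts a library, and its mean was 3.51 CPM with the empty vector and 3.209 CPM with shRNA_2bp, so shRNA stood apart from the other 3 groups.

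All 4 tested erythroid names rose, though not under all 4 scalings, and they stand for a single pair of arms, since miR-486a and its copy miR-486b have the same counts, at 177.6 to 196.4 CPM and 208.3 to 231.0 CPM for the 5p arm (0.26 ± 0.0768, adjusted p = 0.00594; adjusted p = 0.179 with the shRNA_2bp reference). The red-cell marker miR-451a had 13 counts in all shRNA libraries and 6 in all shRNA_5bp libraries. Of 13 muscle names 2 were tested, and 1 of these rose, against 28.4% of all tested miRNAs. The muscle miRNA miR-1a-3p rose from 7.692, 11.44, 11.22 and 12.79 CPM to 18.29, 18.2, 23.02 and 20.07 CPM (0.87 ± 0.199, adjusted p = 0.000518), below its 44.1 CPM with the empty vector. The other tested name, miR-206-3p at 2.377 CPM, was not called (-0.53, adjusted p = 0.405). The 3 tested oligodendrocyte names were not called, and miR-338-5p was 105.7 to 119.3 CPM and 95.5 to 153.1 CPM (-0.02 ± 0.116, adjusted p = 0.922). The part of cell make-up in the changes above was not tested.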

How the data were processed

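Small RNA was sequenced from 16 libraries, 4 in each of 4 groups, made from 100 ng of RNA with 15 PCR cycles and size selection, per the labels' protocols. The deposited values are raw read counts per mature miRNA name, made by the authors; the submitters' processing notes name bcl2fastq 2.20.0.422, Trim Galore 0.6.0, cutadapt 1.15, Bowtie 1.1.1, edgeR and GRCm38.p6, without roles. The handling of reads that match several names is not given in the sources used here, and 14 tested names share identical counts with another.

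From the counts, edgeR 4.0.16 in R 4.3.3 fitted its robust quasi-likelihood model to all 16 libraries after filterByExpr and scaling by the trimmed mean of M values. P-values were adjusted by Benjamini-Hochberg over all tested features, with a threshold of 0.05. Ratios of arms (offset 0.5 counts) were tested in limma 3.58.1, and counts summed by seed in edgeR. The steps were tested on simulated data. Alternatives were DESeq2 1.42.0, other scalings and references, no filter, the 8 libraries alone, thinning, a replicate block and leaving out each library. Values are mean ± SD where n is given and fold changes are ± SE. Reads carried no molecular identifiers, so floors of 3 counts cover counting error only.

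Named were the 10 largest rises and falls that were called, had at least 10 CPM on average over the 8 libraries and did not overlap; the 10 most abundant; up to 3 called members per list; and up to 5 arm ratios and shared seeds in each direction. Other names are said to be chosen after their values were seen. A result that the rule names is not reported here. The members and lists were chosen with earlier results of these data known.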

Additional observations from a re-analysis of the deposited data

Results flagged for a closer look

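In 6 of the 148 groups of 4 libraries examined, 1 library stood apart from the other 3 by Dixon's criterion, which chance meets in about 5% of groups. In shRNA, library 4 held 305.8 CPM of miR-770-5p against 342.8 to 348.0 CPM in the others, library 3 held 0.3506 CPM of miR-709 against 2.18 to 2.34 CPM, and library 2 held 297.9 CPM of miR-27a-3p against 323.9 to 327.4 CPM. Library 4 of shRNA also held 30.27 CPM of miR-29b-3p against 10.69 to 11.63 CPM, and the call of miR-29b-3p rests on it (-0.69 without it, adjusted p = 0.107 in edgeR). In shRNA_5bp, library 3 held 34.53 CPM of let-7k against 15.6 to 18.29 CPM, and library 2 held 10120 CPM of miR-30d-5p against 9205 to 9339 CPM.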

How the results depend on the processing

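Without a filter on low counts, where the scaling reference also moved to an shRNA_2bp library, 185 miRNAs fell and let-7i-5p and let-7g-5p turned to -0.07 and -0.09; with the reference held in shRNA, 138 fell and they stood at 0.06 and 0.04, not called. Leaving out 1 library at a time gave 90 to 138 rises; the low values, 91, 94, 90 and 92, came without shRNA library 1, 2 or 3 or shRNA_5bp library 4, where the scaling reference moved to an shRNA_2bp library, and with the reference held among shRNA libraries there were 122 to 138. Changed arm ratios numbered 14 from the 8 libraries alone, 7 after thinning and 14 to 29 without 1 library. Let-7i-5p turned to -0.02 without shRNA library 3 (-0.02 to 0.13 over the libraries left out). Let-7g-5p turned to -0.05, -0.02, -0.05 and -0.03 without shRNA library 1, 2 or 3 or shRNA_5bp library 4 (range -0.05 to 0.15), and to -0.01 with the shRNA_2bp reference; the held and changed references were chosen after seeing the data. Of the named results, 49 of 71 miRNAs, 4 of 10 arm ratios and 9 of 10 seeds kept their direction and side of the threshold under every alternative run for them. With the replicate number as a block, 266 miRNAs changed, 140 of them up, with 25 arm ratios; same-numbered libraries correlated at 0.222, -0.0192, -0.0319 and 0.228, so the numbers were not taken to pair them. Depth limits names near 3 counts.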
